A study of Mus musculus with 10 samples.

Results

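The genes described here are the 19 mouse Wnt ligand genes, the 10 Frizzled receptor genes, the co-receptor genes Lrp5 and Lrp6, and Axin2. These 32 genes were chosen by name, out of 21887 protein-coding genes in the RefSeq annotation of GRCm38.p6. An accessible region was counted to a gene when its strongest summit lay within 20 kb of the gene span. By that rule 231 of 117284 regions were counted in aged cells and 238 of 131656 in young cells. The assay was ATAC-seq, which reads open DNA from where a transposase can insert adapters, on muscle stem cells from C57BL/6 mice. The cells had been sorted as α7-integrin and CD34 positive and kept for 2 h in culture medium that held FBS and bFGF. The 10 libraries fall into aged cells (20 to 25 months) with prostaglandin E2 (PGE2, 3 libraries) or vehicle (0.1% DMSO, 3), and young cells (8 to 20 weeks) with PGE2 (2) or vehicle (2). The data used are 2 peak lists, 1 for aged and 1 for young cells, both after PGE2, and the vehicle libraries were not analysed here. There is no value per library, so differences between the ages are given below without an error over replicates and without a test.

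Wnt proteins are secreted, lipid-modified signals that bind the cysteine-rich domain of a Frizzled receptor. With the co-receptors Lrp5 or Lrp6 they stop the destruction of β-catenin, which then acts with TCF and LEF factors on genes such as Axin2, itself a brake on the pathway. Other ligands act through Frizzled receptors without β-catenin, on cell polarity and movement. In muscle, Wnt7a acting through Fzd7 is known to expand the stem cell pool, and β-catenin signalling has been tied to the differentiation of activated stem cells.

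The number of reads per library is unknown. A uniform background, inferred from the steps of the authors' folds, came to 19.8 fragments in the aged list and 21.7 in the young list. The weakest summit of each list then held 37 and 39 fragments. A fold below is the authors' value, taken as summit height over that background with a fragment added to each. It is given with its percentile among the regions of its own list, and it is not compared between lists. Gene ends of all 10 muscle stem cell markers examined, among them Pax7 and Myf5, were open in both lists, while 0 of 5 blood markers had an open end in either list. Open ends in both lists were also found for 4 of 5 fibro-adipogenic, 2 of 5 endothelial, 4 of 4 smooth muscle and 3 of 4 glial markers. Over all protein-coding genes 63.3% had an open end in both lists and 33% in neither. Ly6a was open in the aged list only, beside 0.48% of all genes, and Cdh5 and Sox10 in the young list only, beside 3.2%. An open gene end is not a measure of transcription, and the part of other cells in the values below was not tested.

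Most Wnt and receptor genes had an open end at both ages. A gene end was called open when a region lay within 1 kb of either end of the gene span. Of the 32 genes, 28 (87.5%, 95% exact binomial interval 71.0 to 96.5) had an open end in both lists, beside 63.3% of all protein-coding genes. No gene was open in the aged list only, beside 0.48% of all genes. The gene open in young cells alone was Axin2, beside 3.2% of all genes, and Wnt3, Wnt8b and Wnt9b had no open end in either list, beside 33% of all genes. The annotated start was known for 22 of the 32 genes. At those starts 19 genes were open in both lists, beside 63.2% of genes with a known start, and 3 in neither, beside 33.9%. None was open in one list alone, beside 0.366% of starts open in the aged list alone and 2.5% in the young list alone. Axin2 was among the 19, because its annotated start lies inside the span.

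**Figure D1:**
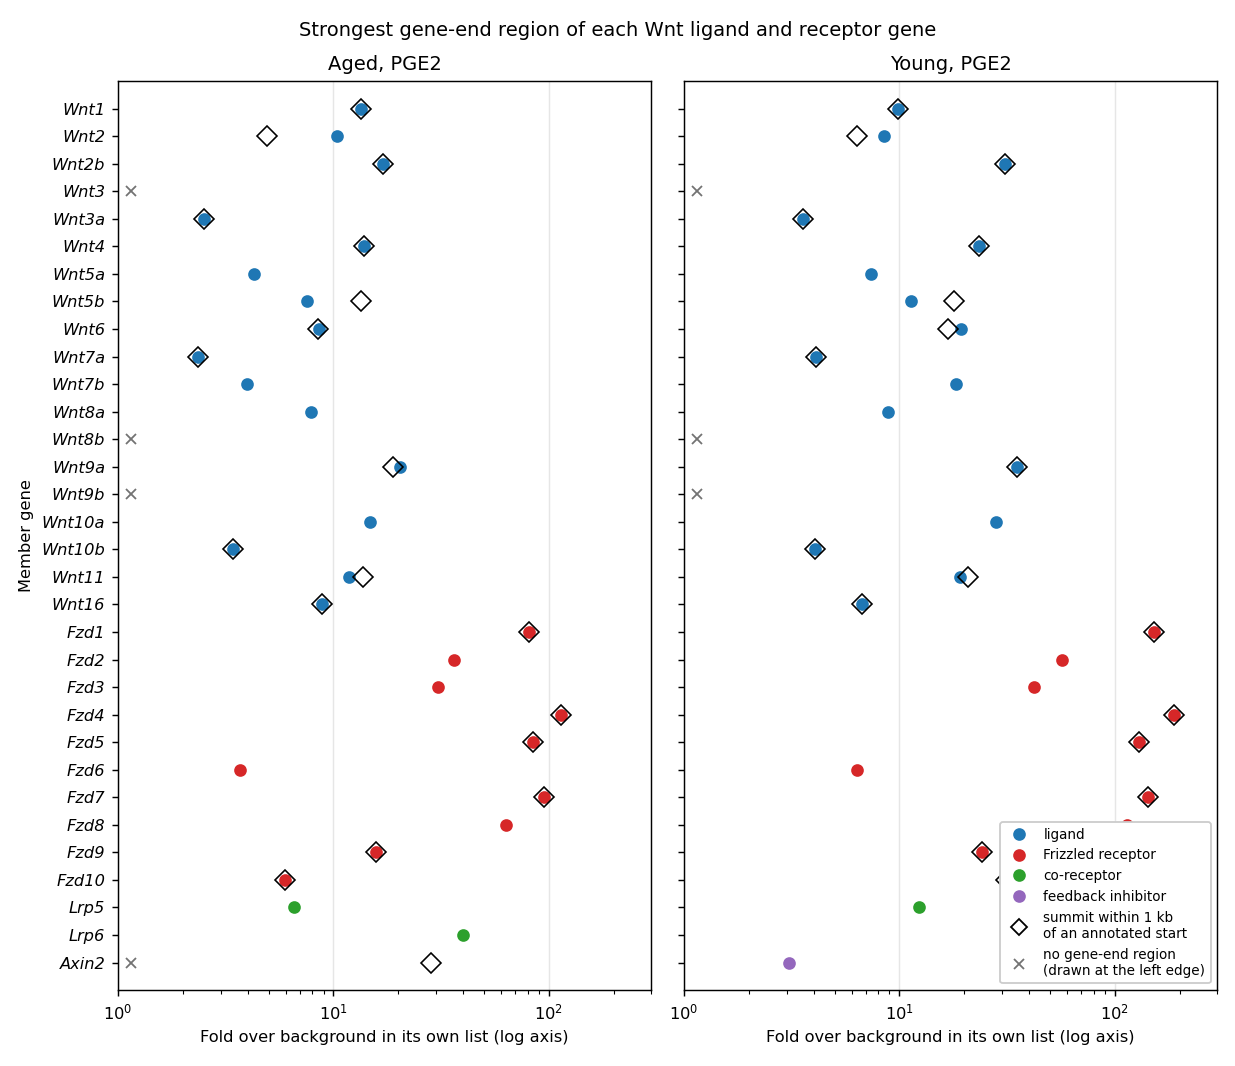
Fold over background (x axis, log scale) of the strongest gene-end region of each of the 32 genes (y axis) in the aged list (left) and the young list (right). Filled circles are coloured by role, open diamonds give the strongest summit within 1 kb of an annotated start, and crosses mark genes with no gene-end region. Fzd1, Fzd4, Fzd5 and Fzd7 lie farthest right in both panels, and the ligands reach 20.3-fold in the aged list and 35.3-fold in the young list.

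The receptor genes held the strongest ends. All 10 Frizzled genes were open in both lists (95% exact binomial interval 69.2 to 100). Their strongest gene-end folds ran from 3.70 to 114 with a median of 49.9 in the aged list, and from 6.38 to 188 with a median of 85.5 in the young list. Of the 10, 7 had an end at or above the 90th percentile in the aged list, beside 33.7% of all genes, and 7 in the young list, beside 40.1%. The 4 genes Fzd1, Fzd4, Fzd5 and Fzd7 were at or above the 99th percentile in both lists, beside 5.11% of all genes in the aged list and 6.24% in the young list.

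Fzd4, a receptor for Wnt ligands and for Norrin in vessel growth, was the strongest of all 32. It lies on chromosome 7 (89404366 to 89410110, plus strand), and the region at its start reached 114-fold (99.8th percentile) in aged cells and 188-fold (99.8th) in young cells. An end of Tmem135 lies within 1 kb of that same region, so the region cannot be given to Fzd4 alone. Fzd7, the receptor tied to Wnt7a in muscle stem cells, lies on chromosome 1 (59482147 to 59486955, plus strand) and had a start region of 94.9-fold (99.5th) in aged cells and 142-fold (99.5th) in young cells. Its strongest summit lay 140 bp before the start in the aged list and 138 bp before it in the young list. The region was 3877 bp wide in aged cells and 4033 bp wide in young cells, with further summits through the gene. The 300 bases around these starts are shown because Fzd4 had the strongest receptor start in both lists and Fzd7 is the receptor tied to Wnt7a in muscle. They run 5′ to 3′ from 250 bases before the start, and come from RefSeq GRCm38.p6. Capitals mark the letters GGGCGG (SP/KLF), CCAAT and CTTTGTT (TCF/LEF) on either strand.
Fzd4, chr7:89404116-89404415, plus strand: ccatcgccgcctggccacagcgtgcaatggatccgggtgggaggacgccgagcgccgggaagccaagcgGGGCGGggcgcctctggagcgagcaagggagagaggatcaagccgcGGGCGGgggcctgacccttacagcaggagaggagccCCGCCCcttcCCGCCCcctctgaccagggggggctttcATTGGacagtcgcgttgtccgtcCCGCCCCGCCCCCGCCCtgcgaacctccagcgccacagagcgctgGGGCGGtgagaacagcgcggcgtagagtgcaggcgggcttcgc
Fzd7, chr1:59481897-59482196, plus strand: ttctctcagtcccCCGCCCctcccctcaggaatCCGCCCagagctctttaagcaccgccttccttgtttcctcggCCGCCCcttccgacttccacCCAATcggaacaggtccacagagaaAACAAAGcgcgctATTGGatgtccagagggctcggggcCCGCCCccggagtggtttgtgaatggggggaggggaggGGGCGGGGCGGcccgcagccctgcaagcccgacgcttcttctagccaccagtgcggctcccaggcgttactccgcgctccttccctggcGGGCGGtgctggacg
The AACAAAG of Fzd7, which is CTTTGTT read on the minus strand, begins 130 bp before the start and lies beside the summit of both lists. A match of letters is a description and not a binding site.

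Fzd1 and Fzd5, whose products can carry β-catenin signals, had start regions of 81.1-fold (99.03th percentile) and 84.6-fold (99.2nd) in aged cells, and of 151-fold (99.6th) and 130.3-fold (99.3rd) in young cells. Fzd8 followed with 63.4-fold in aged and 114-fold in young cells, in a region of 4770 bp in aged and 4957 bp in young cells that covered one end of this short gene and lay within 1 kb of the other. Fzd2 had 36.3-fold in aged and 57.0-fold in young cells, and Fzd3, known for axon guidance, 30.6-fold and 42.0-fold. Fzd9 was at 15.7-fold (82.6th percentile) in aged and 24.3-fold (86.3rd) in young cells. The weakest receptor end was that of Fzd6, which acts in planar cell polarity of the skin. It had 3.70-fold (43.1st percentile, 76 fragments at the summit) in aged cells and 6.38-fold (59.1st, 144 fragments) in young cells.

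Fzd10 stood apart from the other receptors in the form of its start region. Fzd10 lies on chromosome 5 (128601106 to 128604093, plus strand). In aged cells the region at the start was 870 bp wide with a fold of 5.96 (61.5th percentile). In young cells it was 3582 bp wide with a fold of 31.3 (89.3rd percentile). The strongest summit within 1 kb of the start lay 381 bp before it with 123 fragments in the aged list, and 254 bp before it with 711 fragments in the young list. The single young region overlapped 4 separate aged regions, the strongest of them with a fold of 7.98. Among the other 18 genes with starts open in both lists, 5 also had a start where the strongest aged and young summits lay more than 100 bp apart. They were Wnt1, Wnt5b, Wnt7a, Wnt10b and Wnt11. Such a distance is between the strongest summits only. The aged list also had a weaker Wnt1 summit 164 bp before the start (7.59-fold), near the strongest young one at 175 bp. Over all 22 starts open in both lists the median distance between the aged and the young summit was 13.5 bp, and at 13 starts it was at most 20 bp. The same distance was not measured at the starts of other genes, so whether these values are unusual was not tested.

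**Figure D2:**
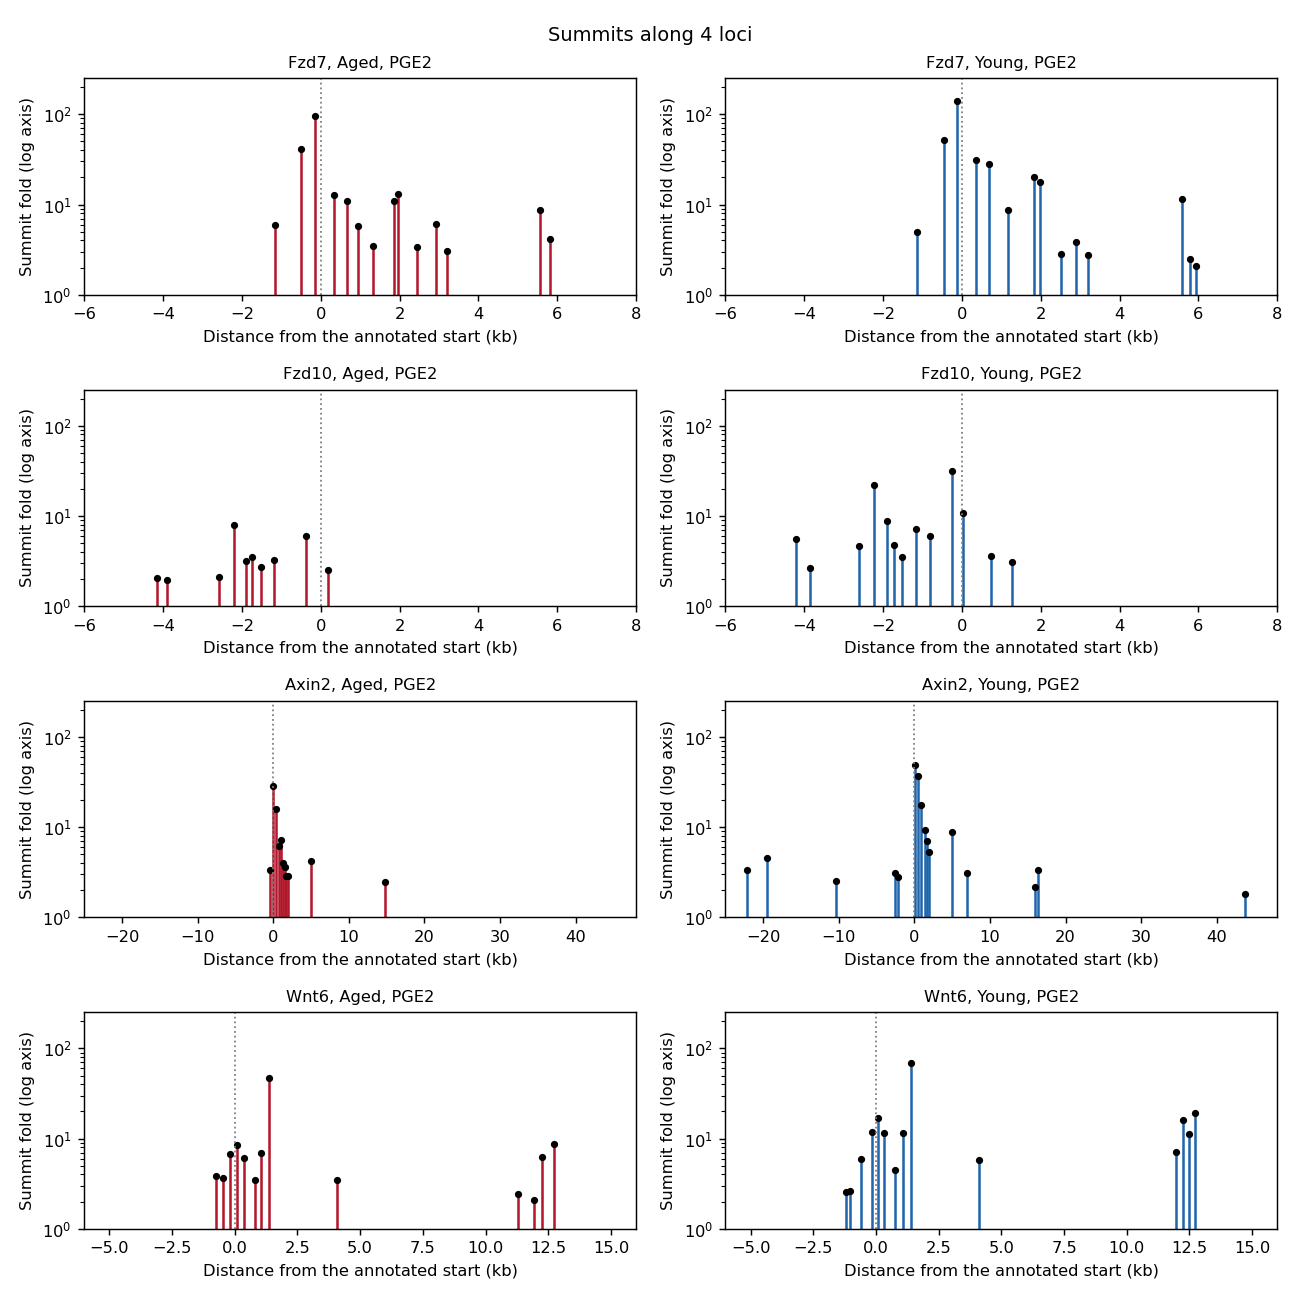
Fold of every summit (y axis, log scale) against its distance from the annotated start (x axis, kb, positive along the gene) at Fzd7, Fzd10, Axin2 and Wnt6, in the aged list (left, red) and the young list (right, blue). The dotted line is the start. Fzd7 shows the same pair of tall summits before the start in both panels, Fzd10 has its tallest summit at 7.98-fold in the aged panel and 31.3-fold in the young panel, and Wnt6 has its tallest summit 1380 bp after the start in both.

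The ligand genes were open at lower levels. Of 19 ligand genes, 16 (84.2%, interval 60.4 to 96.6) were open at an end in both lists and 3 in neither. Their strongest gene-end folds ran from 2.35 to 20.3 with a median of 8.75 in the aged list, and from 3.57 to 35.3 with a median of 10.6 in the young list. Of the 19 ligand genes none had an end at or above the 90th percentile of the aged list, beside 33.7% of all genes. In the young list 1 of the 19, Wnt9a, did, beside 40.1%. Ends below the middle of their list were found for 5 ligand genes in aged cells (Wnt3a, Wnt5a, Wnt7a, Wnt7b and Wnt10b) and for 3 in young cells (Wnt3a, Wnt7a and Wnt10b). Among all genes with a gene-end region that share was 9.11% in the aged list and 8.14% in the young list.

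Wnt7a, the ligand known to act on muscle stem cells through Fzd7, had one of the weakest starts. It lies on chromosome 6 (91363981 to 91411353, minus strand). The region at its start had 2.35-fold with 48 fragments at the summit (13.5th percentile) in aged cells and 4.09-fold with 92 fragments (43.2nd) in young cells. Each list had 2 regions within 20 kb of the gene, and 1 of the 2 overlapped the other list. Wnt7b, its closest relative, had ends of 3.99-fold (46.6th) in aged and 18.3-fold (82.5th) in young cells. These 2 folds come from neighbouring regions. The young region of 18.3-fold was overlapped by 3 aged regions, and only 1 of them, of 2.21-fold, lay within 1 kb of the gene end. The strongest of the 3 began just beyond that window and had 12.4-fold (78.8th) in aged cells. Its summit, 1406 bp from the span, lay at 85583227, and that of the young region at 85583223. Wnt7b also had the strongest ligand region away from any gene end or annotated start. It lay 17460 bp outside the span at 48.3-fold (96.0th percentile) in aged cells (chromosome 15, 85598451 to 85601564), and at 56.1-fold (94.8th) in young cells (85598525 to 85601846).

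Wnt4, reported as a fibre-made signal that keeps muscle stem cells at rest, had a start region of 13.9-fold (80.7th percentile) in aged and 23.4-fold (85.9th) in young cells. A stronger region inside the gene, on chromosome 4 at 137285979 to 137288325 in the aged list, reached 35.6-fold (93.2nd) in aged and 45.2-fold (93.0th) in young cells. Within 20 kb Wnt4 had 6 aged regions, of which 0 were aged-only, and 11 young regions, of which 5 were young-only. Near any protein-coding gene 9.71% of aged regions were aged-only and 28.7% of young regions young-only. The non-canonical ligand genes Wnt5a and Wnt11, which act on cell movement, had end folds of 4.28 and 11.9 in aged cells and 7.35 and 19.1 in young cells. The strongest end summits of the aged and young lists differed in place, at 28504478 and 28504805 for Wnt5a. The young list also had a Wnt5a summit at 28504489, of 6.34-fold. For Wnt11 the strongest end summits lay 630 bp after an annotated start in the aged list and 181 bp before it in the young list. An aged summit 183 bp before that start had 10.7-fold. At the other of the 2 annotated starts of Wnt11 the folds were 13.7 in aged and 20.9 in young cells. The summits there lay 761 bp before the start in the aged list and 750 bp before it in the young list. Wnt5b had 3 annotated starts, and all 3 were open in both lists. The folds of its strongest start region were 13.4 in aged and 18.0 in young cells.

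The strongest ligand end belonged to Wnt9a, at 20.3-fold (86.3rd percentile) in aged and 35.3-fold (90.6th) in young cells, in a region of 4084 and 4027 bp. Wnt2b had 17.0-fold and 31.1-fold at its start. Wnt1, Wnt2 and Wnt16 had ends of 13.5, 10.4 and 8.89-fold in aged cells and of 9.90, 8.50 and 6.73-fold in young cells. Their percentiles were 80.1, 75.4 and 72.0 in the aged list and 70.8, 67.1 and 60.7 in the young list. Wnt3a, a classical β-catenin ligand, had an end of 2.499-fold (17.8th percentile, 51 fragments) in aged and 3.57-fold (36.9th, 80 fragments) in young cells. Wnt10b, known for holding back fat cell formation, had 3.41-fold (38.7th) and 4.05-fold (42.8th). These Wnt10b summits lay at different places, 823 bp before the start in the aged list and 177 bp after it in the young list. Weaker Wnt10b summits lay 817 bp before the start in the young list (2.51-fold) and 260 bp after it in the aged list (2.79-fold). Wnt8a had 7.88-fold in aged and 8.89-fold in young cells, at different summits (34548082 and 34547245). Each list also had a weaker Wnt8a summit near the other place, of 6.78-fold at 34547254 in aged and 7.66-fold at 34548048 in young cells. Wnt10a, known for its part in tooth and hair formation, had 14.8-fold (81.7th percentile) in aged and 28.1-fold (88.1st) in young cells.

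Several ligand genes are neighbours and share regions. Wnt6 and Wnt10a lie 6696 bp apart on chromosome 1, and 12 aged and 11 young regions were within 20 kb of both. Wnt1 and Wnt10b lie 11650 bp apart on chromosome 15 and shared 10 regions in each list. Wnt3a and Wnt9a, 16097 bp apart on chromosome 11, shared 5 aged and 8 young regions. The spans of Wnt3 and Wnt9b overlap by 1098 bp on chromosome 11, with 1 aged and 3 young regions near both. Counts for the members of a pair are therefore not independent.

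At Wnt6 the ends of the span and the annotated start gave different values. At the ends of its span it had 8.60-fold in aged and 19.2-fold in young cells, whereas the region that covers its annotated start, inside the span, had 46.7-fold (95.8th percentile) in aged cells and 69.2-fold (96.4th) in young cells. This was the strongest region that covered a ligand start, although its summit is not at the start. Regions at or above the 90th percentile covered the starts of 6 of the 22 genes in the aged list (Wnt6, Fzd1, Fzd4, Fzd5, Fzd7 and Axin2), beside 35% of all genes with a known start, and of 7 in the young list (the same and Wnt9a), beside 41.4%. The tall summit lay 1380 bp after the start in both lists, and within 1 kb of the start the strongest summit, 78 bp after it in both lists, had 8.46-fold in aged and 16.8-fold in young cells. At the other extreme, Wnt3 had no region within 1 kb of its start or of either end. Its strongest region within 20 kb had 2.26-fold in aged cells and 7.13-fold in young cells, and both lie in the stretch near Wnt9b as well. Wnt9b had 1 region in the aged list and 5 in the young list within 20 kb, 4 of them young-only. Wnt8b had neither an open end nor an open start, yet a region 19132 bp before its start reached 21.5-fold in aged cells and one at the same place 23.7-fold in young cells. The sequences around the starts of Wnt6, Wnt7a and Wnt3 are set side by side. Wnt6 was covered by the strongest region of any ligand start. Wnt7a, a weak start, and Wnt3, with no region within 1 kb of its start, were picked after their values were seen. Capitals mark the same letters as above.
Wnt6, chr1:74771642-74771941, plus strand: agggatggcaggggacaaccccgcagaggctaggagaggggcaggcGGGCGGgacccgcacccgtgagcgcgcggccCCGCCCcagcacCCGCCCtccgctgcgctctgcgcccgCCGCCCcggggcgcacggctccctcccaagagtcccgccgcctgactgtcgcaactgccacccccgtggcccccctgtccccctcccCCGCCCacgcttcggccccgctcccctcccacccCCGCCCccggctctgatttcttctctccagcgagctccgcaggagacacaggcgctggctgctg
Wnt7a, chr6:91411304-91411603, minus strand: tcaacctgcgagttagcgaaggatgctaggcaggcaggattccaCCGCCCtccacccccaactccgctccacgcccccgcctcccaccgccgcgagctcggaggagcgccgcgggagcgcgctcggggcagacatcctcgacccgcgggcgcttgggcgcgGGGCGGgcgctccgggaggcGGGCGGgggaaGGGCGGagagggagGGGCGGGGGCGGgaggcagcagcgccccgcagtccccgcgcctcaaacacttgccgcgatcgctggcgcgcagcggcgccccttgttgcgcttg
Wnt3, chr11:103773925-103774224, plus strand: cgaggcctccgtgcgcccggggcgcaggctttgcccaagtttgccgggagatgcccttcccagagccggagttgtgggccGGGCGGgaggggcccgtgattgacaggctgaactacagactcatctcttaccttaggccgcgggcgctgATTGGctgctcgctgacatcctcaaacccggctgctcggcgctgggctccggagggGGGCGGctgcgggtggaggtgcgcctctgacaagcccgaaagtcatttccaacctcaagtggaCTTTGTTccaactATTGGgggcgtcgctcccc

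Of the co-receptors, Lrp6 had the stronger end, at 40.1-fold (94.4th percentile) in aged and 59.4-fold (95.3rd) in young cells. Lrp5, known for its part in bone mass, had 6.54-fold (64.2nd) in aged and 12.3-fold (75.5th) in young cells. Both are long genes with many regions. Lrp6 had 35 regions in each list, of which 5 were aged-only and 7 young-only. Lrp5 had 17 aged regions with 0 aged-only and 21 young regions with 7 young-only. The shares near any gene were 9.71% and 28.7%, as given for Wnt4. The strongest region within 20 kb of Lrp5, at 52.0-fold in aged and 63.5-fold in young cells, lay at an end of its neighbour Ppp6r3.

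Axin2, a target of β-catenin that feeds back on the pathway, was open at its start at both ages. Axin2 spans 108917828 to 108950783 on chromosome 11, and its annotated start on the plus strand lies at 108920349, more than 1 kb inside the span. The region there had 28.5-fold (90.6th percentile) in aged cells and 49.0-fold (93.7th) in young cells, and was 2548 and 2568 bp wide. Of all genes with a known start, 35% had a start region at or above the 90th percentile in the aged list and 41.4% in the young list. The tallest Axin2 summit lay 3 bp after the start in the aged list and 10 bp after it in the young list. The end of the span that was open in the young list only held a weak region of 3.08-fold (29.1st percentile, 69 fragments). Within 20 kb Axin2 had 3 regions in aged cells, 1 of them aged-only, and 9 in young cells, 7 of them young-only, beside shares of 9.71% aged-only and 28.7% young-only among regions within 20 kb of any protein-coding gene. The young-only regions had folds of 1.80 to 4.58. The number of young-only regions was 7 in 3 other settings, 6 with a −log10 q of at least 5 or a counterpart sought within 1 kb, and 5 at 3-fold or more. It was 1 when equal numbers of the strongest regions were compared, 58642 in each list, or 50% of the aged list. The sequence around the start is shown because both lists have their summit on it. Capitals mark GGGCGG and CCAAT on either strand, and neither CTTTGAT nor CTTTGTT occurs in this window.
Axin2, chr11:108920099-108920398, plus strand: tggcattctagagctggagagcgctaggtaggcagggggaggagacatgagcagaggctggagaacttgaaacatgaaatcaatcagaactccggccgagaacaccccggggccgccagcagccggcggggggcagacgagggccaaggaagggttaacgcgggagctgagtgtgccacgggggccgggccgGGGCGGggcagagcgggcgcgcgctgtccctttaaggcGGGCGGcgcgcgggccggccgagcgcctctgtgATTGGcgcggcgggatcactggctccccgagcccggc

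Around the 32 genes, the share of regions found at one age was close to that around other genes. Of 231 aged regions, 22 (9.52%, interval 6.07 to 14.1) had no overlap in the young list, beside 9.71% of aged regions within 20 kb of any protein-coding gene and 10.7% of all aged regions. Of 238 young regions, 59 (24.8%, interval 19.4 to 30.8) had no overlap in the aged list, beside 28.7% and 28.2%. Overlap was counted from 1 bp. These one-age regions were weak. The aged-only regions had a median fold of 2.35 and a highest fold of 3.32, against a median of 4.52 for the overlapped regions of the aged list. The young-only regions had a median of 3.08 and a highest fold of 7.13, against 7.62 for the overlapped ones. Of the 22 aged-only regions 1 touched a gene end, that of Fzd1, beside 57 of all 231 aged regions near these genes. Of the 59 young-only regions 2 did, at Wnt2b and Axin2, beside 53 of all 238 young regions. The same shares, and the folds, of one-age regions over the whole lists are not given here.

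The strongest aged-only region lay 15360 bp from Lrp6, inside the span of Bcl2l14 (chromosome 6, 134430985 to 134431398, 3.32-fold). It was followed by one 3158 bp from Wnt1 (3.03-fold), one inside Lrp6 (2.93-fold), and 2 of 2.88-fold near Fzd7 and inside Wnt7a. The strongest young-only region lay inside Wnt9b (chromosome 11, 103764610 to 103765057, 7.13-fold). It was followed by regions inside Wnt4 (6.43-fold), Wnt5b (6.34-fold) and Lrp5 (5.55-fold) and by one 15269 bp from Fzd10 (5.02-fold). All 10 were at or below the 62.4th percentile of their own list. The regions away from gene ends that were strongest were found in both lists. After those of Wnt7b, Wnt6, Wnt4 and Axin2 described above, they lay 2587 bp from Wnt10a (32.9-fold in the aged list and 37.7-fold in the young list) and 6439 bp from Wnt2b (24.8-fold and 39.7-fold). Others lay 18773 bp from Wnt11 (24.5-fold and 34.1-fold) and near Fzd4 inside Tmem135 (28.9-fold and 32.002-fold). A second one outside Wnt7b, 11581 bp from the span, had 34.6-fold in the aged list and 43.7-fold in the young list. One inside Lrp6 (26.7-fold) was among the 10 strongest of the aged list alone, and one inside Lrp5 (27.8-fold) among those of the young list alone.

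Some regions near these genes were broken in one list and continuous in the other, as was also seen over the whole lists. Of 209 aged regions with an overlap, 6 (2.87%) overlapped 2 or more young regions, beside 1.67% of all overlapped aged regions. Of 179 young regions with an overlap, 27 (15.1%) overlapped 2 or more aged regions, beside 10.8% of all overlapped young regions. The young regions that overlapped 4 aged regions were those at the starts or ends of Wnt5a (7.35-fold), Fzd10 (31.3-fold) and Fzd4 (17.0-fold, at the far end of the gene). The median width of all regions was 380 bp in the aged list and 435 bp in the young list, and the part of this in the splitting was not tested. Whether the shares of 2.87% and 15.1% differ from those over the whole lists was not tested either.

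**Figure D3:**
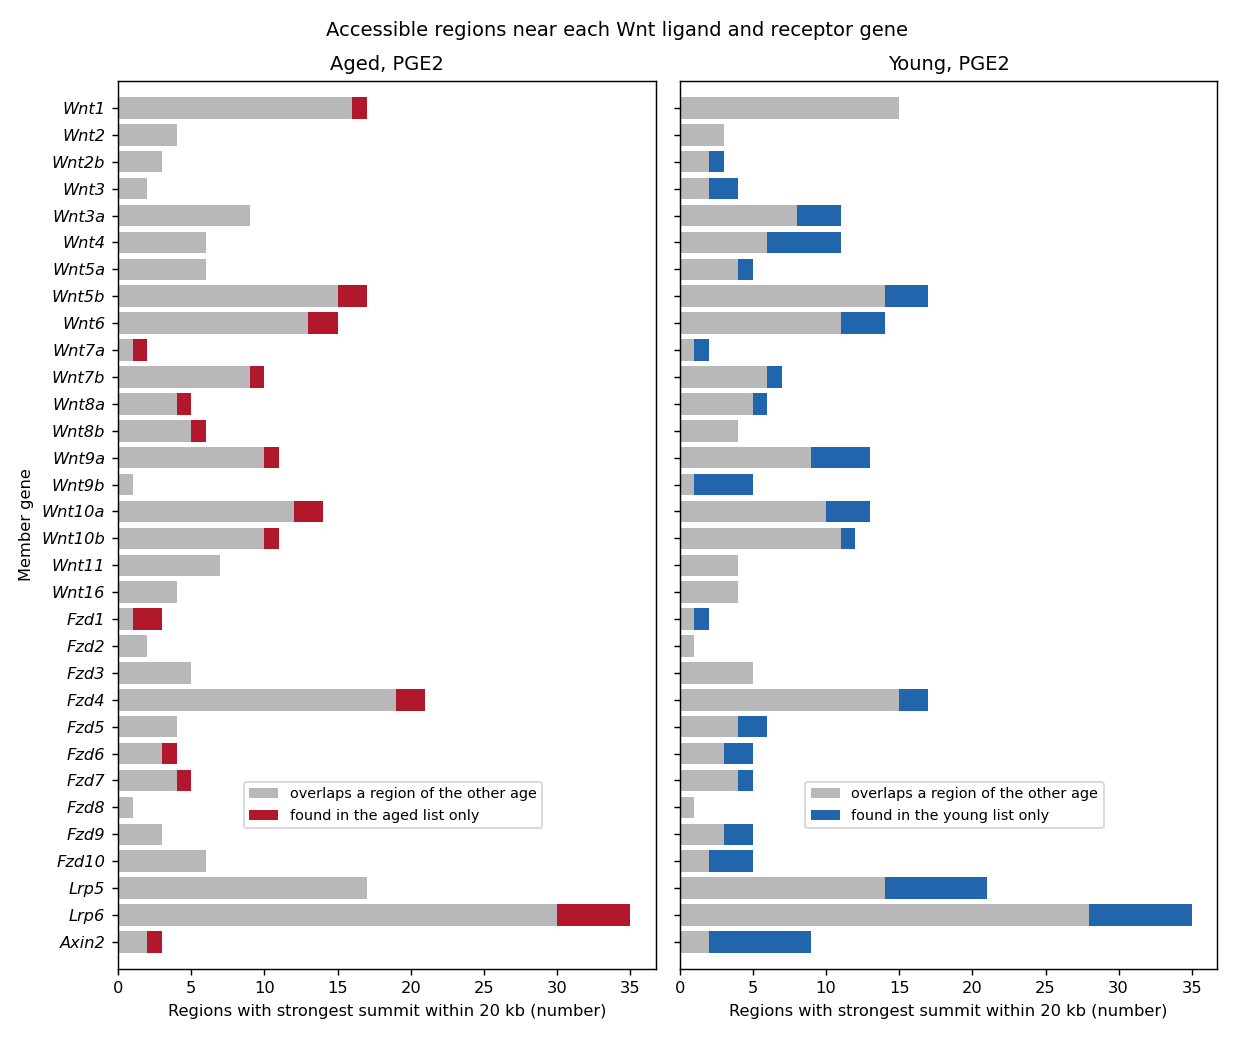
Number of regions (x axis) whose strongest summit lies within 20 kb of each of the 32 genes (y axis) in the aged list (left) and the young list (right). Grey bars are regions that overlap the other list and coloured bars those that do not, and a region near 2 genes is drawn for both. Lrp6 has 35 regions in each panel, and Axin2 has 3 in the aged panel and 9 in the young panel.

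Most starts of these genes were CpG-rich, which the choice of genes did not use. Promoter sequence of 300 bases was used for 25 starts of 22 genes. Not in the table were Wnt5a, Wnt7b, Wnt8a, Wnt10a, Fzd2, Fzd3, Fzd6, Fzd8, Lrp5 and Lrp6. The ratio of observed to expected CpG was at least 0.6 at 20 of the 25 starts (80%), beside 47.7% of all 21263 starts of protein-coding genes and 67.9% of starts open in both lists. The median ratio was 0.837 over the 25 starts, against 0.567 over all starts. Within the family, starts with and without a region overlapped in CpG ratio, and so did strong and weak starts. The starts of Wnt3 and Wnt9b, with no region within 1 kb, had ratios of 0.744 and 0.753. The strong start of Fzd7 had 0.727, and the weak start of Wnt7a had 0.970. Wnt8b, also without a region at its start, had 0.345. These 3 starts without a region all lay below the median of 0.837. A relation of CpG ratio to fold over all 25 starts was not tested. The letters GGGCGG occurred at 20 of the 25 starts, beside 46.2% of all starts, and CCAAT at 10, beside 38.2%. The TCF/LEF letters CTTTGAT were found at 2 starts (Wnt5b and Wnt11), beside 3.22%, and CTTTGTT at 2 (Fzd7 and Wnt3), beside 5.01%. The cAMP response element TGACGTCA was found at 0 of the 25, beside 2.23%, and TGACG, which is contained in it, at 3, beside 23.6%. The AP-1 letters TGANTCA were found at 1 start, beside 6.99%, the E-box CAGCTG at 2, beside 15.6%, and TATAAA at 2, beside 12.6%. Both strands were searched, and matches of different letters can overlap.

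**Figure D4:**
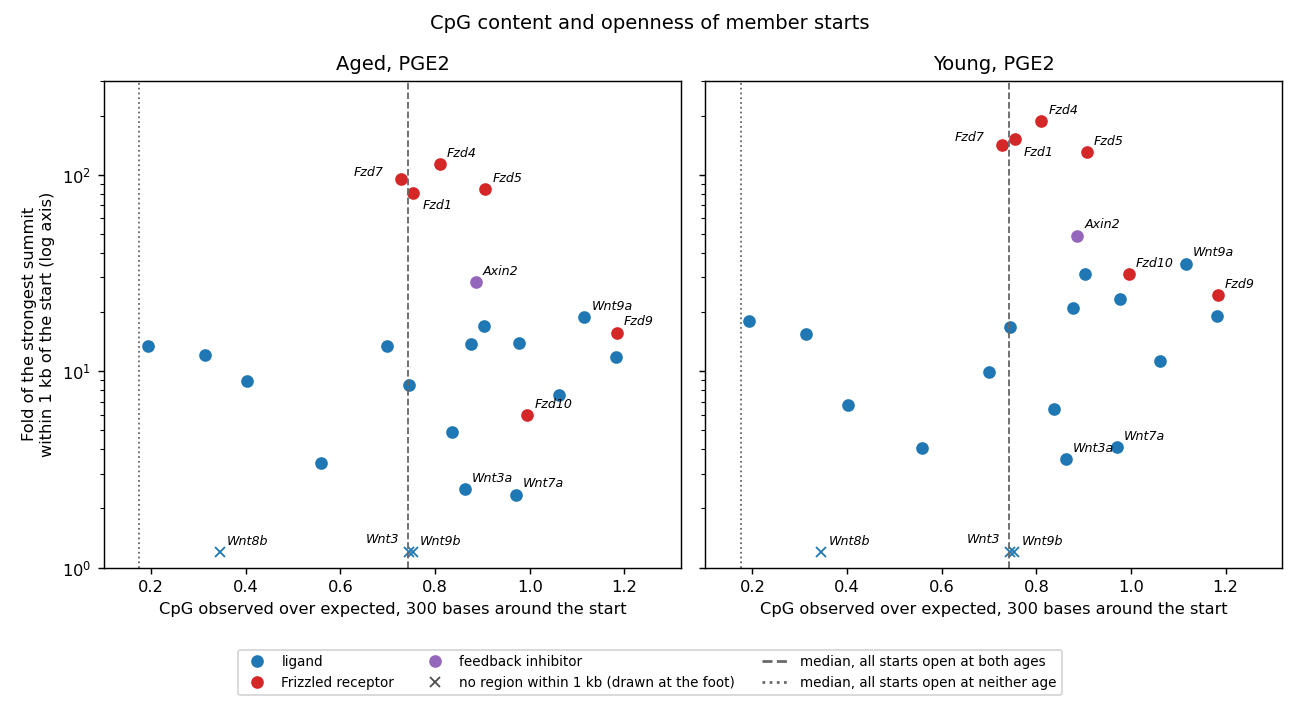
Fold of the strongest summit within 1 kb of each of the 25 starts (y axis, log scale) against the ratio of observed to expected CpG in the 300 bases around it (x axis), in the aged list (left) and the young list (right). Crosses at the foot are starts with no region, and the vertical lines give the medians over all starts open at both ages (0.742) and at neither age (0.175). The starts of Wnt3 and Wnt9b, with no region, stand at almost the same CpG ratio as Fzd7 and Fzd1.

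The rest of the pathway was open at both ages in most places. Of 58 other Wnt pathway genes, 51 had an open end in both lists and 4 in neither, while 0 were open in aged cells alone and 3 in young cells alone. Over all protein-coding genes the shares were 63.3% in both, 33% in neither, 0.48% in aged cells alone and 3.2% in young cells alone. All 3 genes of ligand secretion were open in both lists, with Porcn, which adds the lipid to Wnt proteins, at 42.6-fold in aged and 63.6-fold in young cells, and Wls, which carries them to the cell surface, at 29.2-fold and 37.5-fold. Among 9 genes of R-spondins, their receptors and the ligases they block, 7 were open in both lists. Lgr4 was the strongest at 151-fold in aged and 237-fold in young cells, followed by the ligase gene Rnf43 at 31.0-fold and 48.8-fold (7.16-fold and 14.2-fold at its annotated start). Rspo2 was open in the young list only, with 2.02-fold, and Rspo4 in neither list. Of 14 genes for secreted inhibitors and their Kremen partners, 10 were open in both lists, led by Sfrp4 (45.9-fold in aged, 56.3-fold in young cells) and Kremen1 (33.1-fold, 53.7-fold). Sost (2.16-fold) and Sostdc1 (9.51-fold) were open in the young list only, and Dkk1 and Dkk4 in neither. The annotated start of Dkk4 was not known and so was not examined.

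Inside the cell, 10 of 11 cytoplasmic genes were open at an end in both lists. Gsk3b, a kinase of the β-catenin destruction complex, had 145-fold in aged and 223-fold in young cells, and Dvl3, an adaptor that binds Frizzled receptors, 92.7-fold and 134-fold (46.3-fold and 89.3-fold at its annotated start). Axin1 had no open end in either list, but its annotated start was not known and so was not examined. All 10 nuclear genes were open in both lists, with the co-repressor gene Tle1 at 126-fold in aged and 188-fold in young cells and Pygo2 at 61.7-fold and 88.8-fold. All 11 genes of planar polarity and alternative receptors were also open in both lists. The strongest ends in the aged list were those of Celsr3 (34.3-fold in aged, 51.1-fold in young cells) and Prickle1 (30.4-fold in aged, 51.9-fold in young cells), while Ror1 led the class in the young list (28.1-fold in aged, 53.0-fold in young cells). The end of Celsr3 is not its annotated start, where the folds were 6.58 in aged and 8.63 in young cells.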

How the data were processed

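ATAC-seq libraries of sorted muscle stem cells were grouped by age and treatment from their titles. The submitters' processing notes name Bowtie2 and the build mm10 (GRCm38). The authors deposited 2 peak lists in the layout of MACS, without headers. The caller's options, the read filters, any shift of read ends and the libraries behind each list: not given in the sources used here. Each summit carries the authors' fold ratio over background and, as deposited, its −log10 q and −log10 p. The deposited score, read from the values, is 10 times the −log10 q rounded down, and the deposited offset places the summit in its row. A uniform background was recovered from the steps of the folds, on the assumption that a fragment is added to summit height and to background. Of folds below 150, 100% were whole steps within a tolerance of 0.05 of a step.

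Rows that touch or overlap were merged (215838 aged and 265507 young rows), and the summit with the highest −log10 q was kept. Gene spans and starts came from RefSeq tables of GRCm38.p6. The mitochondrial genes were left out. Intervals are exact Clopper-Pearson at 95% and cover counting over genes or regions only. Merging and overlap were tested on simulated data. All 32 genes are reported, and of 58 other pathway genes those with an end open at one age and the 2 strongest per class in the aged list. Promoters are those of the ligand and Frizzled starts covered by the strongest regions and Axin2, with Fzd7, Wnt7a and Wnt3 added after values were seen. The genes and lists were chosen with earlier results of these data known. Python 3.11.15, pandas 2.3.3, NumPy 2.4.6, SciPy 1.17.1 and matplotlib 3.10.9 were used.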

Additional observations from a re-analysis of the deposited data

How the results depend on the processing

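No paired analysis was possible because each age has 1 pooled list, and for the same reason no library could be left out. Of 22 genes with an annotated start, 16 kept their gene-end class in all 7 settings, and of the 10 without one, 7 kept it in the 6 settings that could be run. In the equal-number setting the 58642 strongest regions of each list were kept, which is 50% of the aged list and a smaller share of the young list. It therefore also drops the weaker regions of both lists. With equal numbers of the strongest regions, 22 of the 32 genes were open in both lists. At annotated starts 19 of 22 were, and the other settings gave 26 to 30, against 28. The share over all genes is given only for the main setting and for annotated starts. No setting gave a gene open in the aged list only. Genes open in the young list only numbered 3 with equal numbers of the strongest regions or at 3-fold and above, 2 with windows of 500 bp, and 0 with windows of 2.5 kb or at annotated starts. Genes open in neither list numbered 7 with equal numbers, where Wnt3a, Wnt7a, Wnt10b and Axin2 joined them. Wnt5a, Wnt7b and Fzd6 were then open in the young list only. Of the other pathway genes, 1 was open in the aged list only at a −log10 q of at least 5, 1 in the young list only with windows of 2.5 kb and 0 at annotated starts, and 10 (equal numbers) and 7 (3-fold) in neither. With equal numbers, 110 aged and 113 young regions were counted, and within 50 kb 352 and 389. Aged-only regions numbered 14 at the stricter q, 7 with equal numbers, 8 at 3-fold (4.85%), 87 with a reciprocal overlap of 50% (37.7%), 74 with summits within 100 bp (32.03%) and 8 with a counterpart within 1 kb (3.46%). Young-only regions numbered 17 with equal numbers (15.0%), 106 within 50 kb, 94 with reciprocal overlap (39.5%) and 38 with a counterpart within 1 kb (15.97%). Stricter thresholds drop weak regions by construction, and otherwise the cause was not tested. The depth of the libraries is unknown, so a region missing from a list was not detected there and is not shown to be closed.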
